A study of Mus musculus with 18 samples.

Results

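The class I olfactory receptors of the mouse lie side by side on chromosome 7, and the 126 members described here were taken by name and position alone. They are the protein-coding genes of GRCm38 (mm10) with an Olfr number as symbol that start between 102 and 105.5 Mb on chromosome 7, which makes 126 of 21774 protein-coding genes. The first is Olfr543, starting at 102476773, and the last is Olfr692, ending at 105369317, a span of 2.89 Mb. The same stretch holds 32 receptor pseudogenes and 27 other protein-coding genes.

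Accessible chromatin was mapped by ATAC-seq, which reads out where a transposase can cut and tag DNA, in dTKO, a line of mouse embryonic stem cells. All cells carried the genotype Suv39h1fl/fl, Suv39h2-/-, Setdb1fl/fl, genes that encode histone H3 lysine 9 methyltransferases. The labels state for all libraries, those of 0 h included, treatment with 100 µg/ml of auxin and 0.5 µM of dTAG13, compounds that trigger the degradation of suitably tagged proteins; the labels do not say which protein carried a tag, and a control of another genotype was not analysed here. The 18 libraries are 3 biological repeats from each of 0, 3, 6, 12, 24 and 48 h of treatment, and 0 h was the stated baseline for finding chromatin that opens when the enzymes are ablated. The values are 1 merged list of 166066 peak positions over all libraries, without a library, time, read count or height. No receptor therefore has a value per library, a change over time or an error between repeats, and sequencing depth is unknown. Every share below is a description of this list, with 95% Wilson intervals over genes that cover counting error only, and no test was run. Neighbouring receptors share flanking DNA and peaks and are not replicates. In a bulk sample, DNA open in few cells and DNA weakly open in all cells cannot be told apart.

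Odorant receptors are G protein-coupled receptors with a single coding exon, and each olfactory sensory neuron expresses one of them from one allele. Class I receptors resemble the receptors of fish, form a single large cluster and include detectors of carboxylic acids and other water-soluble odorants, whereas class II receptors are spread over many chromosomes. In olfactory neurons the silent class II genes are packed in chromatin marked by histone H3 lysine 9 methylation, and class I genes depend on a long-range enhancer called the J element. The position of the J element is in none of the sources used here, so no peak was assigned to it.

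The label of the cluster was checked against the receptor family numbers given as synonyms in the gene table, where MOR families 1 to 42 are class I. Of the 126 genes, 122 had such a number, and 120 had a single one, which lay between 1 and 42 and covered 41 families. Olfr592 and Olfr605 had more than 1 number, and Olfr596, Olfr652, Olfr681 and Olfr687 had none. The labelled cell type was checked at its markers. All 6 embryonic stem cell genes listed (Pou5f1, Nanog, Sox2, Esrrb, Klf2 and Zfp42) had a peak within 500 bp of an annotated end. So did 7 of 11 genes of the olfactory sensory neuron. With 71.4% of all protein-coding genes having such a peak, these counts say little about the cell type. The neuronal genes without one were the ion channel subunit gene Cnga2, the stomatin-like gene Stoml3 and the receptor transport genes Rtp1 and Rtp2. Hba-a1 was the only 1 of 5 erythroid genes with a peak at an end.

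The start regions of 4 receptors and of Rrm1, the gene that flanks the cluster on its low-coordinate side, show what the peak list marks and what it passes over. Each run below is the RefSeq GRCm38.p6 sequence from 250 bases before to 50 after the annotated 5′ start, read 5′ to 3′ on the gene's strand, and capitals mark bases inside a peak. Olfr545 (chr7:102494724-102495023, minus strand) had the only receptor window that a peak entered, over 148 bases. Olfr543 (chr7:102477853-102478152, minus strand) lay between 2 peaks that both fell outside the window. Olfr66 (chr7:103882192-103882491, minus strand) was the receptor nearest to a peak among those that no peak touched, and Olfr679 (chr7:105085468-105085767, plus strand) the farthest from any peak. Rrm1 (chr7:102441445-102441744, plus strand), which encodes the large subunit of ribonucleotide reductase, lay inside a peak over all 300 bases.
Olfr545: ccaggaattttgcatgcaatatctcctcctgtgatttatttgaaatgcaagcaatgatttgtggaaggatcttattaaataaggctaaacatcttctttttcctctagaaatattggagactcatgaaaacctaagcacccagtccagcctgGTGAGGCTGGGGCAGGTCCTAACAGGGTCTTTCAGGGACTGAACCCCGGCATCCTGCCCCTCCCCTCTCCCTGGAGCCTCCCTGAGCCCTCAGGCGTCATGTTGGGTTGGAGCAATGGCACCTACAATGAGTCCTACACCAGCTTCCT
Olfr543: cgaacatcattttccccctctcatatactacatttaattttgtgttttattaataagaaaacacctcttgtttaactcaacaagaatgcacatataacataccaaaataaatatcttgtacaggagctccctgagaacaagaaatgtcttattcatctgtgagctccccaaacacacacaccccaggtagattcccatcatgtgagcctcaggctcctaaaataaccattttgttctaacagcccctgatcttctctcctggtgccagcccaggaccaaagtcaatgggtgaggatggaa
Olfr66: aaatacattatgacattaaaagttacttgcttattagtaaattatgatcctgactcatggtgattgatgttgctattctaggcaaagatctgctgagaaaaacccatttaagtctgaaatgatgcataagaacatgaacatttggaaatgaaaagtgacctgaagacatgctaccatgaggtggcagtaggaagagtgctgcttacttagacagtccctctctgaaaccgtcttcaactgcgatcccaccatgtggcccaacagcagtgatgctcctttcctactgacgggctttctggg
Olfr679: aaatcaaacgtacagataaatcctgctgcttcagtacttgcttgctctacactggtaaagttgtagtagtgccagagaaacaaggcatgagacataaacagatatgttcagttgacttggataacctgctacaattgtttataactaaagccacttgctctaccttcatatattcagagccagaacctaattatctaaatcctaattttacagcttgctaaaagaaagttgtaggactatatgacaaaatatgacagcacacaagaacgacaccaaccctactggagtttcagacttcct
Rrm1: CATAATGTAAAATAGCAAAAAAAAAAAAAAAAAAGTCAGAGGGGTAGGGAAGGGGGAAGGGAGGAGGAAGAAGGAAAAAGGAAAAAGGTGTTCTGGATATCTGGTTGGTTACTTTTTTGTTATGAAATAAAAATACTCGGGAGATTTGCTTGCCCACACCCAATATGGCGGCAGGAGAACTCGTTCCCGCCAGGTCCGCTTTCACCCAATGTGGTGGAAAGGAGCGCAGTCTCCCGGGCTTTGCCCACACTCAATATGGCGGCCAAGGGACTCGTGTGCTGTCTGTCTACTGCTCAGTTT

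These runs differ in base composition as well as in peaks. The window of Olfr545 had 49.3% G and C and 2 CG dinucleotides, that of Olfr543 40.7% and 1, that of Olfr66 41.7% and 3, that of Olfr679 37.7% and 2, and that of Rrm1 47.0% and 9. The Olfr679 window held 1 match each to TAATTA and TATAAA, and the other 4 windows held no match to any of the 5 motifs searched.

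A peak at a gene end was uncommon among the class I receptors. Within 500 bp of either annotated end, 4 of 126 receptors had a peak (3.17%, 95% interval 1.24 to 7.88), against 71.4% of all protein-coding genes. The 4 were Olfr543, Olfr544, Olfr545 and Olfr658. A peak overlapped the gene itself in 8 receptors (6.35%, interval 3.25 to 12.0), against 81.6% of all protein-coding genes. These 8 were the same 4 and Olfr64, Olfr631, Olfr676 and Olfr687. The remaining 118 receptors had a peak neither at an end nor over the gene. The gene table gives no strand, but the RefSeq promoter table gives a 5′ start for 109 receptors, 55 on the plus and 54 on the minus strand. Of these, 2 had a peak within 500 bp of that start (1.83%, interval 0.505 to 6.44), Olfr543 and Olfr545, against 70.9% of the 17492 protein-coding genes with a start in that table.

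**Figure D1:**
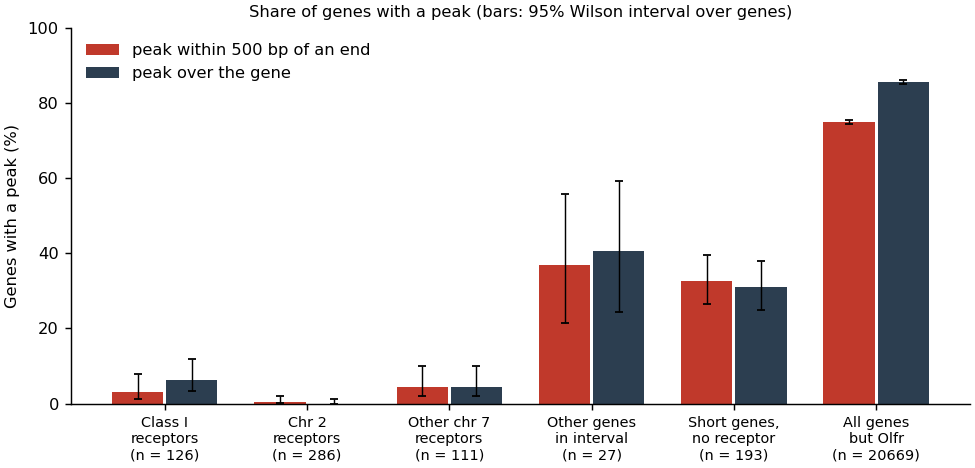
Share of genes (%) with a peak within 500 bp of an annotated end (red) and over the gene (dark blue) in 6 sets of protein-coding genes, with bars for 95% Wilson intervals over genes. The class I receptors stand at 3.17% and 6.35%, the other genes of the same interval at 37.0% and 40.7%.

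The same count was taken in other sets of genes. Among the 286 receptors of chromosome 2, which are class II, 1 had a peak at an end (0.350%, interval 0.0617 to 1.95) and 0 had one over the gene (interval 0 to 1.33). Among the 111 receptors elsewhere on chromosome 7, 5 had a peak at an end and 5 over the gene (4.50% each, interval 1.94 to 10.1), and among all 979 receptors outside the class I interval 51 had one at an end (5.21%, interval 3.98 to 6.78). These intervals treat genes as independent, and neighbouring receptors are not, so overlap or separation of intervals decides nothing between the sets. For peaks over the gene, the counts were 8 of 126 class I receptors (interval 3.25 to 12.0) and 0 of 286 chromosome 2 receptors (interval 0 to 1.33). The difference was not tested, and the 8 include the neighbours Olfr543, Olfr544 and Olfr545. Of these 8, 7 were among the 22 class I models over 1100 bp, 1 of them Olfr543 at 1130 bp. Of the 104 shorter class I models 1 had a peak over the gene (0.962%, interval 0.170 to 5.25). The chromosome 2 receptors were not split by length, so the part of length in the difference was not tested. The counts at an end depended on the window and on the first 3 receptors. Within 2000 bp of an end, 9 of 126 class I receptors (7.14%) and 14 of 286 chromosome 2 receptors (4.90%) had a peak. Without Olfr543, Olfr544 and Olfr545 the class I share at 500 bp was 0.813%. They were left out after their peaks were seen, so a lower share was fixed by that choice. Receptors are short genes, and of 193 other protein-coding genes in the length range of the shorter receptors, vomeronasal receptors left out, 63 had a peak at an end (32.6%, interval 26.4 to 39.5). Receptor genes can be near-identical copies, and the handling of reads that match several places was not given in the sources used here, so a missing peak says that none was listed at that place.

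Of the 4 receptors with a peak at an end, 3 lie at the low-coordinate edge of the cluster and are the members of family MOR42. Olfr543 (102476773 to 102477902, minus strand) contained a peak of 670 bp at 102477163 to 102477832, which ended 70 bp inside its 5′ end, and a second peak of 310 bp lay 471 bp upstream of that end. Olfr544 (102484114 to 102488307, minus strand), a receptor for azelaic acid, contained a peak of 878 bp at 102484519 to 102485396. That peak lay 405 bp from the 3′ end and 2911 bp from the 5′ end, so it marks the body and the far end of the gene model and not its start. Olfr545 (102493823 to 102494773, minus strand) had a peak of 901 bp at 102493971 to 102494871 that covered its 5′ end and 803 bases of the gene. Rrm1 ends 7.0 kb before Olfr543. A peak of 1619 bp covered its start, 1 of 1370 bp lay inside it, and 1 of 1509 bp lay between it and Olfr543.

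From Olfr543 to Olfr545 the 0.0180 Mb held 5 peaks, which is 278 per Mb. The borders of this stretch are receptors that overlap a peak, so a high density was fixed by that choice. The next receptor, Olfr547, begins at 102534749, and the 2 peaks between them, of 972 and 1112 bp, overlapped the gene models Gm38627 and Gm8556. Olfr547 itself lay 21.0 kb from its nearest peak and Olfr549, the one after it, 9.83 kb.

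**Figure D2:**
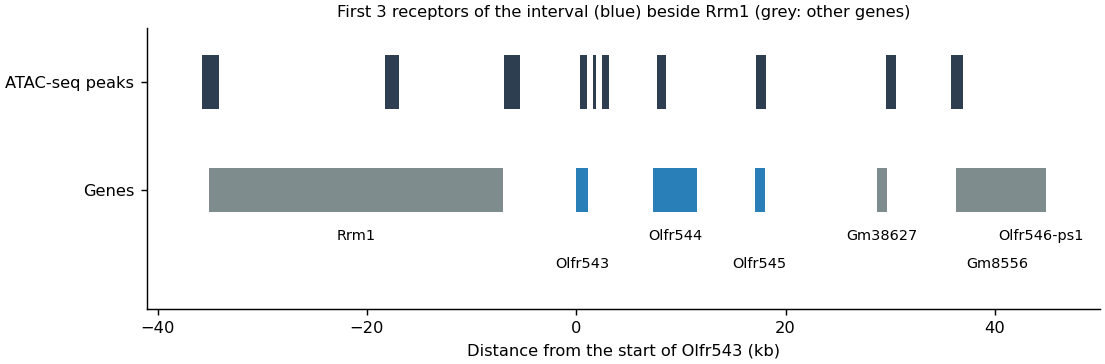
Positions of ATAC-seq peaks (upper row) and genes (lower row; class I receptors in blue, other genes in grey) against the distance from the start of Olfr543 in kb. Each of the first 3 receptors overlaps a peak of 670 to 901 bp, and Rrm1 ends 7.0 kb before Olfr543.

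Away from the edge, Olfr658 was the only receptor with a peak at an end. It is a gene model of 4426 bp (104642880 to 104647305, strand not given) in family MOR34, and its peak of 808 bp at 104646798 to 104647605 covered the higher-coordinate end and 508 bases of the gene. The other 6 members of MOR34 had no peak at an end, and the median distance over the 7 was 24.4 kb. In 4 receptors a peak lay inside the gene model but not at an end. In Olfr64 (family MOR1) it was 322 bp wide and lay 606 bp from the nearer end. In Olfr631 (MOR3, 15605 bp) it was 1262 bp wide and 6108 bp from the nearer end, and in Olfr676 (MOR32, 4587 bp) 368 bp wide and 2030 bp from it. Olfr687, whose model spans 48745 bp, contained 2 peaks of 277 and 524 bp, 23721 and 12808 bp from the nearer end.

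Long and short gene models differed in these counts. The median receptor was 957 bp long, and 104 of the 126 were at most 1100 bp, of which 96 had a length that is a multiple of 3. Among these short models 1 of 104 had a peak at an end (0.962%, interval 0.170 to 5.25), and among the 22 longer ones 3 had (13.6%, interval 4.75 to 33.3). Over the gene the counts were 1 of 104 and 7 of 22. The annotated 5′ start was the letters ATG in 77 of the 89 short models with a start in the promoter table (86.5%) and in 5 of the 20 longer ones (25.0%). For most short models the annotation thus begins at the coding sequence, and the 500 bp window there is not known to hold the promoter.

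Distance to the nearest peak needs no window, but it was measured from the edges of the gene model. It therefore depends on the annotated ends as well. The receptors lay a median of 14.1 kb from the nearest peak (quartiles 7.47 and 23.0 kb, farthest 51.6 kb). The chromosome 2 receptors lay at 17.1 kb (quartiles 8.80 and 31.1 kb, farthest 127 kb), all receptors outside the class I interval at 11.4 kb, the 193 short other genes at 4.27 kb, and all protein-coding genes at a median of 0. Of the class I receptors, 22 lay within 5 kb of a peak, 61 between 5 and 20 kb, and 43 (34.1%) beyond 20 kb. Beyond 20 kb lay 43.7% of the chromosome 2 receptors and 5.18% of all protein-coding genes. Class I models of up to 1100 bp lay at a median of 15.4 kb, with 37.5% beyond 20 kb. The longer class I models lay at 8.62 kb, with 18.2% beyond 20 kb. Just outside the 500 bp window were Olfr66, 555 bp downstream of a peak of 553 bp, and Olfr64, whose internal peak is described above. Both belong to family MOR1 and are the first 2 receptors after the globin genes.

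The 5 receptors farthest from a peak were Olfr679 at 51.6 kb, Olfr600 at 49.8 kb, Olfr681 at 48.5 kb, Olfr599 at 41.8 kb and Olfr630 at 41.5 kb. They sit in 3 of the 5 longest stretches of the span without a peak. Olfr679 and Olfr681 lie with Olfr677, Olfr678, Olfr683 and Olfr684 in 137 kb without a peak, from 105034124 to 105170889. Olfr599 and Olfr600 lie with 5 others, from Olfr596 to Olfr603, in 102 kb. Olfr630 lies in 93.9 kb that hold 7 receptors, from Olfr243 to Olfr67, and end at the globin genes.

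**Figure D3:**
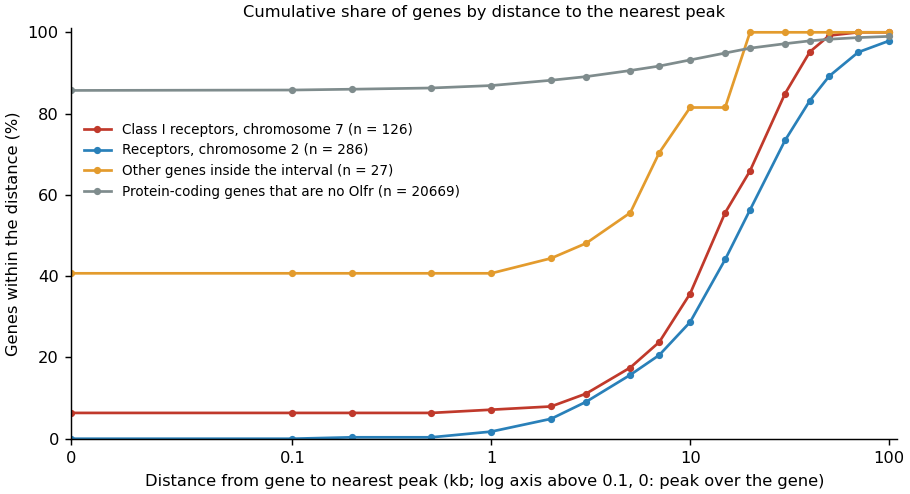
Cumulative share of genes (%) by distance from the gene to the nearest peak (kb, log axis above 0.1, with 0 for a peak over the gene), for class I receptors, chromosome 2 receptors, other genes inside the class I interval and protein-coding genes that are no Olfr. Within 5 kb stand 17.5% of the class I receptors, 15.7% of the chromosome 2 receptors and 55.6% of the other genes of the interval.

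Olfr78 and Olfr558, which are known from tissues outside the nose as well, had no peak at an end and lay closer to one than the median receptor. Olfr78, a receptor for short-chain fatty acids that is expressed in kidney and carotid body, lay 5.78 kb from a peak of 630 bp. Its model of 18751 bp contains the whole of Olfr560, so the annotation of this pair overlaps. Olfr558, a neighbour of the same family (MOR18), lay 6.34 kb downstream of a peak of 494 bp. Near the other edge, Olfr690, Olfr691 and Olfr692 had the same nearest peak, of 811 bp, at 19.9, 12.5 and 17.3 kb. The strand allowed a direction for 109 receptors. The nearest peak was upstream of 55, downstream of 47 and over the gene in 7.

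Families, which are sets of receptors with similar sequence, also differed in their median distance. Among families with at least 6 members the median distance was 12.5 kb in MOR31 (11 members), 15.4 kb in MOR14 (8), 19.1 kb in MOR13 (6), 19.6 kb in MOR32 (10), 23.6 kb in MOR40 (8) and 24.4 kb in MOR34 (7). MOR42 was the only family of more than 1 member with a median of 0. Many families lie in 1 stretch of the cluster, where family and position cannot be told apart. Neighbours also had their nearest peak in common, and the 126 receptors had 54 distinct nearest peaks. The peak of 1547 bp at 104033350 to 104034896 was the nearest one of 7 receptors, Olfr638 to Olfr644. A peak of 368 bp inside Olfr676 was the nearest of 6, Olfr672 to Olfr679.

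Most spaces between neighbouring receptors held no peak. There were 87 gaps with a class I receptor on both sides, 1.04 Mb in all, and 24 peaks had their midpoint there, or 23.0 per Mb. No peak lay in 69 gaps (79.3%), 1 in 14, 2 in 2 and 3 in 2. Gaps between chromosome 2 receptors held 24.5 peaks per Mb, and 71.1% of those 190 gaps were empty. Gaps between the other receptors of chromosome 7 held 38.5 per Mb. Over all 33281 gaps between neighbouring autosomal genes there were 53.9 peaks per Mb, and over those of 5 to 30 kb 92.7 per Mb with 35.7% empty. The peaks between class I receptors were 487 bp wide in the median (212 to 1547 bp), against 586 bp between chromosome 2 receptors and 578 bp over all peaks. They covered 1.32% of the gaps, against 1.60% between chromosome 2 receptors and 3.75% between all autosomal genes.

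The peaks of these gaps were seldom beside a receptor. Only 1 of the 24 lay within 1 kb of one, the peak upstream of Olfr543, while 12 lay at 1 to 5 kb and 11 farther, with a median of 4.75 kb and a maximum of 12.5 kb. They lay upstream of the nearer receptor in 11 cases and downstream in 6, and for 7 its strand was not given. Orientation fixed part of these calls. Between receptors that point away from each other any peak is upstream, and between receptors that point towards each other any peak is downstream. The gap of 20.9 kb between Olfr608 and Olfr609 and that of 23.1 kb between Olfr585 and Olfr586 held 3 peaks each. The gap of 6.21 kb between Olfr543 and Olfr544 and that of 25.3 kb between Olfr553 and Olfr554 held 2 each, and that of 7.01 kb between Olfr576 and Olfr577 held 1, at 1182 bp from Olfr576.

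Only 3 of the 24 were 1000 bp wide or more. The widest, 1547 bp, lay between Olfr640 and Olfr641, 4.90 kb upstream of Olfr641. The next, 1298 bp at 103105036 to 103106333, lay between Olfr585 and Olfr586, 6.34 kb downstream of Olfr585, and the next, 1212 bp at 103201196 to 103202407, between Olfr592 and Olfr593, 9.46 kb upstream of Olfr593. In contrast 11 of the 24 were narrower than 400 bp. By orientation, 5 of 12 gaps between receptors that point away from each other held a peak, 1 of 13 between receptors that point towards each other, and 4 of 39 between receptors that point the same way. Per length the order was another, with 26.6, 28.8 and 11.6 peaks per Mb in these 3 kinds of gap, and all 3 peaks of the second kind lay between Olfr585 and Olfr586. The strand was not given for both sides of the other gaps.

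**Figure D4:**
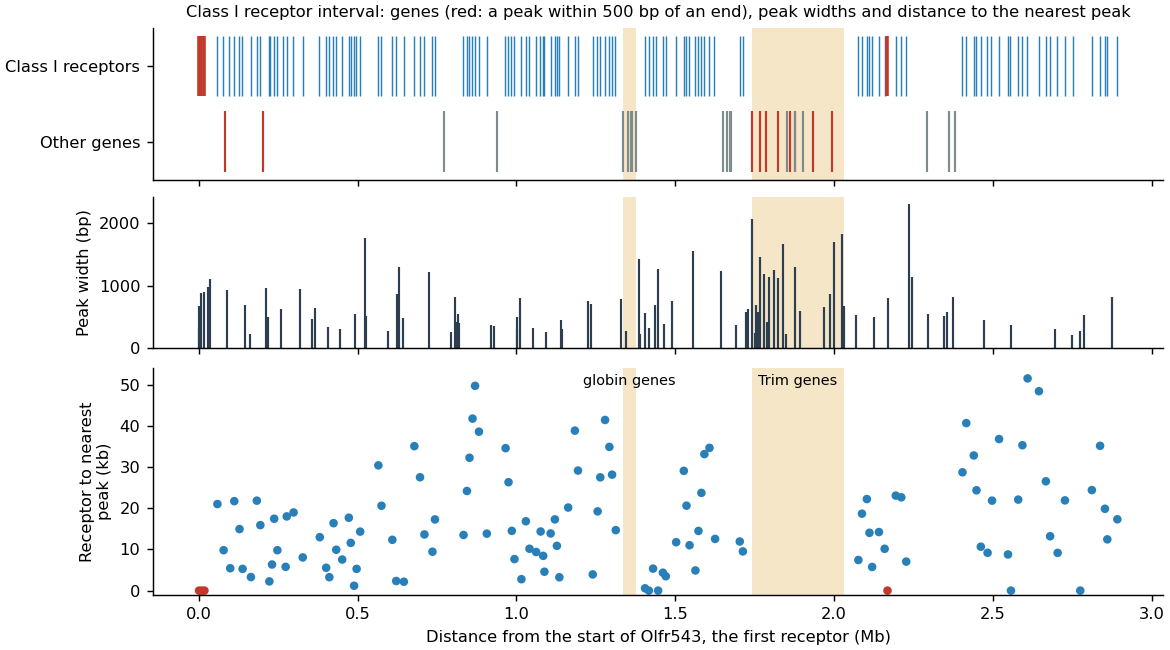
The class I interval by distance from the start of Olfr543 (Mb): receptors and other protein-coding genes (top, red with a peak within 500 bp of an end), peak widths in bp (middle) and the distance of each receptor to its nearest peak in kb (bottom), with the globin and Trim genes shaded. The red receptors are the first 3, at the left edge, and Olfr658, and the highest points are Olfr679 at 51.6 kb and Olfr600 at 49.8 kb.

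The share of genes with a peak within 500 bp of an end was 3.17% for the receptors and 37.0% for the 27 other protein-coding genes of the same 2.89 Mb. The receptor models had a median length of 957 bp and the other genes 7147 bp, and the part of length in this difference was not tested. Of the 27, 10 had a peak at an end (interval 21.5 to 55.8%) and 11 over the gene, their median distance was 3.99 kb, and 0 of 27 lay beyond 20 kb. Of the 23 with a 5′ start in the promoter table, 10 had a peak within 500 bp of it (43.5%). Those with a peak at an end were Gm38525 and genes of the Trim family of ubiquitin ligases. Trim21, the cytosolic antibody receptor, had a peak of 930 bp and Trim68 1 of 956 bp, both among receptors. Trim6, Trim34a, Trim5, Trim12a, Trim12c, Trim30a and Trim30d, several of them in the group known for antiviral action, lie together between Olfr649 and Olfr651. Trim34b, Trim30b and Trim30c of the same block had none and lay 3.99, 1.39 and 8.68 kb from a peak.

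The deubiquitinase genes Usp17ld, Usp17lc, Usp17lb and Usp17la had no peak at an end and lay 16.9, 9.19, 6.50 and 5.07 kb from one, and Usp17le had a peak of 547 bp inside. The ubiquilin genes Ubqln5 and Ubqlnl lay at 6.89 and 16.6 kb and Olfm5, an olfactomedin gene, at 2.33 kb. The β-globin genes sit inside the cluster between Olfr67 and Olfr66, and none had a peak at an end. The adult genes Hbb-bt and Hbb-bs lay 5.21 and 4.35 kb from a peak, the embryonic genes Hbb-bh1 and Hbb-y 17.4 and 7.31 kb, and Hbb-bh2 16.6 kb. Of the 4 peaks in this block, that of 1425 bp lay 7.31 kb and that of 227 bp 11.6 kb upstream of Hbb-y, the side on which the locus control region of the globin genes is known to lie.

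Peak density differed between blocks of the interval. The span held 93 peaks, 32.2 per Mb, against 68.1 per Mb over chromosome 7 and an autosomal median of 65.9. The 1 Mb below the span held 97.0 per Mb and the 1 Mb above it 61.0. Of the 93, 24 (25.8%) lay between receptors, 9 (9.68%) over receptors, 11 (11.8%) in gaps beside a receptor pseudogene, 1 over a pseudogene, 29 (31.2%) in gaps beside another gene, 13 over another protein-coding gene and 6 over other gene models. The 73 receptors from Olfr543 to Olfr67 stood in DNA with 31.9 peaks per Mb, the 18 from Olfr66 to Olfr649 in 29.1 per Mb, and the 35 from Olfr651 to Olfr692 in 18.4 per Mb. The globin block between had 44.7 and the Trim block 63.4 per Mb.

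The block with the fewest peaks per Mb also had the farthest receptors, but both values are read from the same peak positions and are not independent. The median distance was 13.9 kb from Olfr543 to Olfr67, 11.4 kb from Olfr66 to Olfr649 and 19.9 kb from Olfr651 to Olfr692, and 28.8%, 27.8% and 48.6% of the receptors lay beyond 20 kb. Within 5 kb of a peak lay 13, 6 and 3 of them. Counted from the start of Olfr543, no full 100-kb step of the span was without a peak. This depends on where the steps begin, because 2 stretches without a peak, of 137 and 102 kb, are longer than a step. The 15 steps with at least 5 receptors held 1 to 8 peaks, with a median of 2.

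The 32 receptor pseudogenes of the span, genes annotated as without an intact coding frame, had a peak at an end and over the gene in 5 cases each. These were Olfr1527-ps1, Olfr579-ps1, Olfr260-ps1, Olfr647-ps1 and Olfr650-ps1. Of the 126 protein-coding receptors, 4 had a peak at an end and 8 over the gene, and of all protein-coding genes 71.4% and 81.6%. The higher share in pseudogenes than in receptors was not tested. The median distance of the pseudogenes to a peak was 15.7 kb, and Olfr680-ps1, at 56.6 kb, lay beyond every intact receptor.

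The sequence at the receptors' annotated starts was poor in CG. Over 109 windows of 250 bases before to 50 after the start, the median G and C content was 37.3% (25.3 to 51.7%), with a median of 1.00 CG dinucleotide (0 to 5). No CG was present in 35 windows (32.1%), and 0 windows held 10 or more. The 242 windows of chromosome 2 receptors had 32.7% G and C, a median of 1.00 CG and none in 36.0%. Over 17492 protein-coding genes the medians were 56.3% and 13.0 CG, 5.20% of windows had none, and 57.2% had 10 or more. The 5670 windows of protein-coding genes with no peak over them had medians of 45.0% and 2.00 CG. Receptor windows are part of this set, because a peak lay over only 1 of the 109 class I and 0 of the 242 chromosome 2 windows. The observed CG count over that expected from the base content had a median of 0.0995 in class I receptors, 0.116 in chromosome 2 receptors, 0.155 in windows without a peak and 0.576 over all protein-coding genes.

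**Figure D5:**
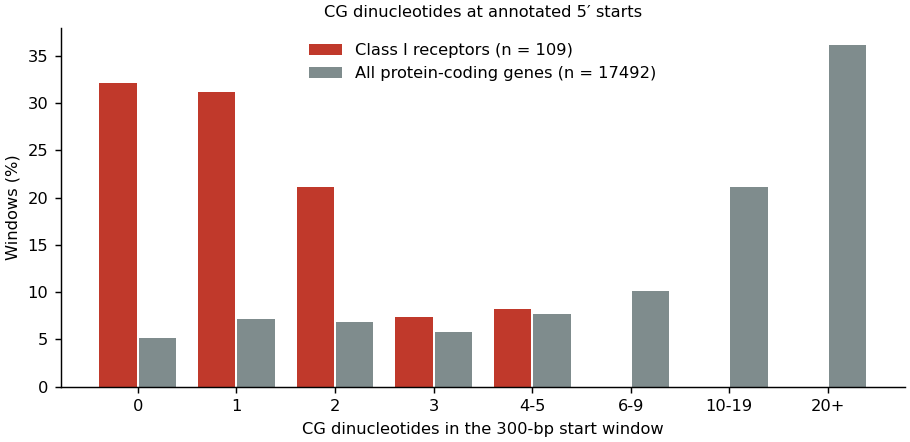
Share of start windows (%) by number of CG dinucleotides in the 300 bp window, for class I receptors (109 windows) and all protein-coding genes (17492 windows). No class I receptor window holds more than 5, and 57.2% of all windows hold 10 or more.

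Motifs were searched on both strands of the same windows, and a match describes letters only. TATAAA, the TATA box, was found in 43 class I windows (39.4%), in 49.6% of chromosome 2 receptor windows and in 13.3% of all protein-coding windows. TAATTA, the core bound by homeodomain factors such as Lhx2, was found in 16 (14.7%), 24.8% and 4.68%. CCCNNGGG, the core of the site of Ebf factors, was found in 3 (2.75%), 2.07% and 15.3%, and the octamer ATGCAAAT in 5 (4.59%), 2.89% and 1.71%. GGGCGG, the box bound by Sp and Klf factors, was found in 3 (2.75%), 0% and 46.3%. The median G and C content of the same sets of windows was 37.3%, 32.7% and 56.3%. The shares were not adjusted for it, and the part of base content in them was not tested. In the 5670 protein-coding windows with no peak over them the shares were 26.8% for TATAAA, 9.49% for TAATTA, 8.27% for CCCNNGGG, 2.08% for ATGCAAAT and 6.68% for GGGCGG. Each was nearer to the class I share than that of all protein-coding windows. These 5670 windows include nearly all receptor windows, those of class I, of chromosome 2 and of other places, so this nearness is partly built in. Of the 831 receptors outside the class I interval with a 5′ start, 22 had a peak within 500 bp of it. Because most short models start at the coding sequence, these windows hold the bases just before the start codon and are not known to be promoters.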

How the data were processed

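The submitters' processing notes name MACS2 2.2.7.1, Bowtie2 2.4.2 and Trimmomatic 0.36, with builds mm10 and GRCm38. The deposited list holds positions only, another kind of value than a count or signal, for 166066 merged peaks over 18 libraries. How peaks were merged, the peak threshold, and the treatment of duplicates, blacklisted regions, multiply matching reads and the insertion offset are not given in the sources used here. A threshold or read filter could change which peaks exist. Starts were read as counted from 0 and are given from 1.

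Genes came from a RefSeq table of GRCm38.p6, with 348 genes in scaffold coordinates left out, and 165744 peaks lay on assembled chromosomes. Strand, 5′ starts and sequences came from the RefSeq promoter table. A gene had a peak at an end where a peak overlapped a window of 500 bp around either end by at least 1 bp, and peaks were assigned to gaps by midpoint. A gap runs between neighbouring genes of any kind. Times were not compared, and the number of unused columns with values of single samples was 0. Receptor proteins were not analysed here. Intervals are 95% Wilson intervals. Named are the receptors with a peak at an end, the 5 nearest and 5 farthest others, those beside the 5 gaps with most peaks and the 3 widest gap peaks, the first and last receptor, and the other protein-coding genes of the interval, 1 of which is not reported here. Olfr78, Olfr558, Olfr690, Olfr691, Olfr547, Olfr549 and the members of families and peakless stretches were named after their values were seen. Members and lists were chosen with earlier results of these data known. The counting was tested on simulated peaks. Software was matplotlib 3.10.9, scipy 1.17.1, pandas 2.3.3 and numpy 2.4.6 under Python 3.11.15.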

Additional observations from a re-analysis of the deposited data

How the results depend on the processing

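With windows of 250 bp, an overlap of at least 200 bp or only peaks above the median width of 578 bp, 3, 3 and 4 of 126 receptors had a peak at an end, against 68.8%, 69.4% and 66.7% of all protein-coding genes. Windows of 2000 bp gave 9 of 126 (7.14%), against 14 of 286 chromosome 2 receptors (4.90%) and 79.7% of all protein-coding genes, and added Olfr576, Olfr66, Olfr64, Olfr631 and Olfr687. With receptor pseudogenes the count was 9 of 158 (5.70%), and at the 5′ end alone 2 of 109 (1.83%). Without Olfr543, Olfr544 and Olfr545, a choice made after seeing the data, 1 of 123 receptors had a peak at an end (0.813%). Other genes of the interval had a peak at an end in 37.0% at 250 bp and 40.7% at 2000 bp, also added after seeing the data.

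With only peaks wider than the median, 5 of 126 receptors had a peak over the gene (3.97%), the median distance was 28.2 kb in place of 14.1 kb, and 9 peaks lay between receptors, 8.64 per Mb in place of 23.0. This setting removes peaks by construction. Midpoint distances gave 15.6 kb. Between receptors, whole peaks gave 23.0 per Mb, protein-coding order 22.4, and leaving out the gap between Olfr543 and Olfr544 gave 21.2, the last chosen after seeing the data. No paired analysis was possible because the peak list holds no values per library, and no library could be left out. Depth per library is unknown, so how many weak peaks were missed near receptors cannot be said.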
